A study of Mus musculus with 4 samples.

Results

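Rab GTPases were examined in mouse gallbladder cells that had been reprogrammed to insulin-positive cells. The members are all rows of the deposited table whose gene symbol is Rab followed by a number and, at most, a letter and a further digit, which gave 57 of 20377 genes. Rab7l1, now also called Rab29, falls under this rule. Regulators such as Rab3gap1 do not. The only group is rGBC2, with 4 libraries numbered 1 to 4 (replicates 1 to 4 in the plots). Its source cells were primary gallbladder cells of C57BL/6-background mice, 8 weeks old, carrying the transgene of the B6.Cg-Tg(Ins1-EGFP)1Hara/J line, also named MIP-GFP, in which an Ins1 promoter drives a green fluorescent protein. All 4 libraries share the treatment, which combined the factors Pdx1, Ngn3, Mafa and PAX6 with compounds over 10 days, and all 4 were made from cells sorted as positive for the reporter and insulin. The labels do not say whether the libraries came from separate animals or cultures, so errors and p-values measure only the spread between these libraries, which may be technical.

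Rab proteins are small GTPases that mark the membranes of the secretory and endocytic routes. In the GTP-bound form a Rab recruits effectors that tether, move or dock a vesicle. Exchange factors (GEFs) load GTP, GTPase-activating proteins (GAPs) end the signal, and GDP dissociation inhibitors (GDIs) return the lipid-modified protein to its membrane. In endocrine cells the Rab3 and Rab27 proteins sit on hormone granules and act in their docking and release, while other members serve traffic between the endoplasmic reticulum (ER) and Golgi, endosomes, lysosomes or constitutive export. Members were grouped here by the compartment for which each is best known.

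Estimated depth lay between 22220000 and 32920000 reads, read from the step that 1 read makes in short genes. Libraries 3 and 4 stood close together: for genes with 20 to 200 estimated reads, the median squared difference in units of sampling variance was 0.792 between them, against 5.05 to 7.85 for every other pair of libraries. They still differed by more than counting alone gives on average (mean 1.92, where sampling gives 1). Separate preparations of the same RNA can also exceed sampling, so this cannot tell whether they are technical repeats. They were kept as separate libraries, and results with their mean counted as 1 library are given where a call changes. Across 11842 genes the difference between libraries 3 and 4 and libraries 1 and 2 followed the GC content of the transcript (Spearman 0.57). These library pairs were compared because earlier results of these data had separated them by Y-linked genes, which are not examined here. The sex or source of the animals therefore cannot be told apart from GC content or any other difference between the library pairs. Each library pools many cells, so fewer cells of a type and less RNA per cell cannot be told apart.

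Most of the family was transcribed, and all 57 members had a value above 0 in every library. Of them 50 lay above 1 RPKM (reads per kilobase of transcript, scaled to the mapped reads of the library), against 65.0% of all 16919 genes tested, and 3 lay below it, against 26.1% of all (limma moderated test with Benjamini-Hochberg adjustment over all genes tested). These shares of all genes, 65.0% above and 26.1% below, also stand beside the counts of each class and list given below. The median of the members' mean levels was 19.8 RPKM, beside 7.38 RPKM over all genes tested. A mean of at least 10 RPKM was reached by 38 members (66.7%, beside 44.3% of all genes tested) and one of at least 100 RPKM by 6. The members' summed RPKM was 2229 ± 41.1 (SD, n = 4), or 0.417% ± 0.0357 of the summed RPKM of a library. The 3 below 1 RPKM were Rab26, Rab33a and Rab44. Rab3b, Rab3c, Rab32 and Rab39 passed in neither direction. With libraries 3 and 4 averaged, 47 members lay above 1 RPKM, and the 3 that lost the call were Rab2b, Rab9b and Rab15.

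**Figure D1:**
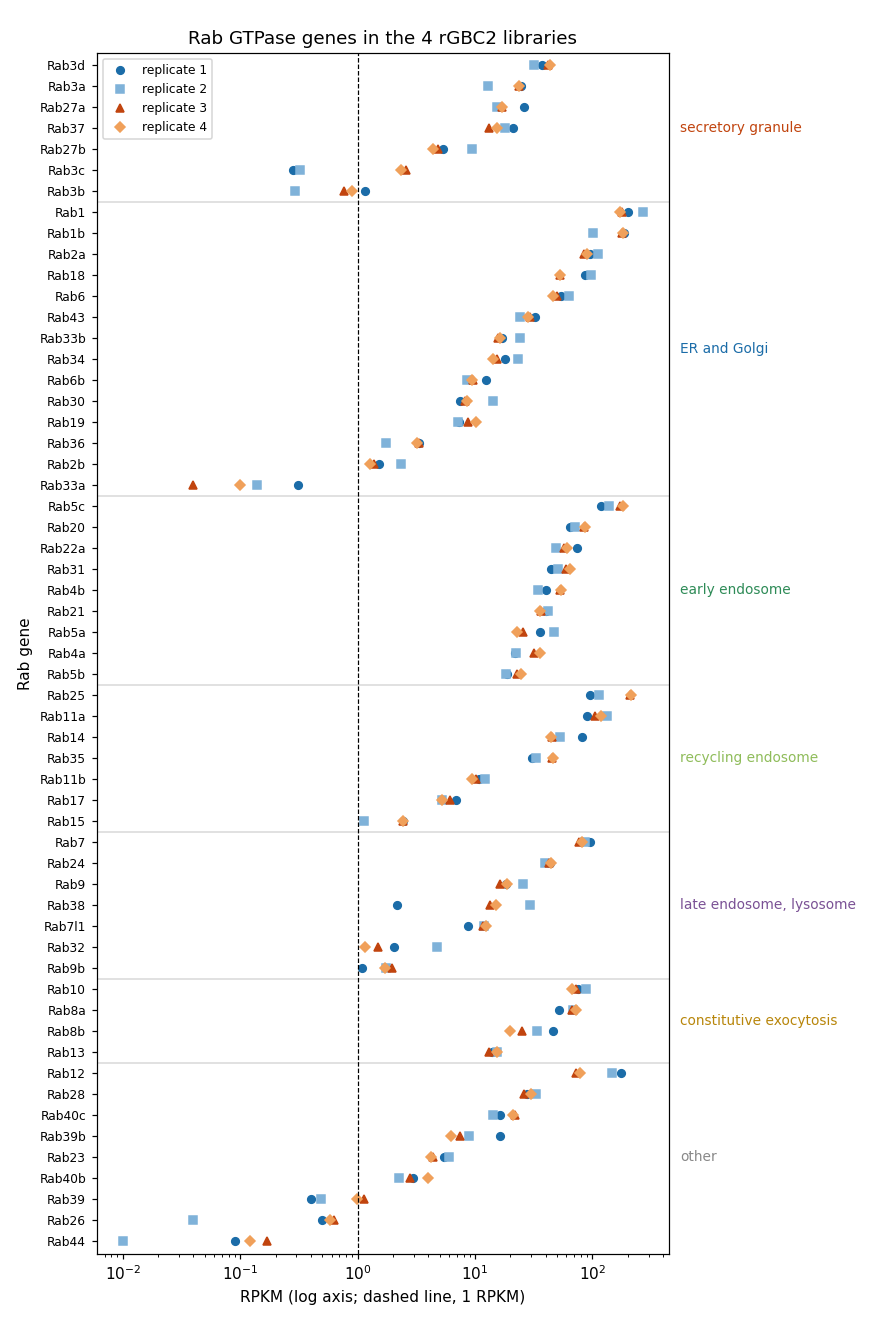
RPKM of the 57 Rab genes on a log axis, grouped by compartment, with 1 point per rGBC2 library and a dashed line at 1 RPKM. Housekeeping members such as Rab1 and Rab5c lie above 100 RPKM in every library, the 5 leading granule Rabs between 4.35 and 43.5 RPKM, and Rab33a and Rab44 below 1 RPKM in every library.

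The secretory granule Rabs were led by Rab3d, Rab3a and Rab27a. Rab3d, a Rab3 isoform of granules in exocrine and endocrine cells, was measured at 37.35, 32.0, 42.1 and 43.5 RPKM in libraries 1 to 4. Its mean was 38.7 ± 5.18 RPKM (SD, n = 4). Rab3a, the main Rab3 isoform of neurons and endocrine cells, stood at 24.6, 13.0, 23.45 and 23.5 RPKM, with a mean of 21.1 ± 5.46 RPKM. Library 2 held the lowest value of both genes. Rab27a, which recruits granule docking proteins, was at 26.0, 15.3, 16.9 and 16.9 RPKM, with a mean of 18.7 ± 4.87 RPKM, and library 1 stood above the other 3. The test against 1 RPKM called all 3 higher (adjusted p by limma of 3.65e-07, 7.57e-06 and 4.51e-06). In mm9 the rows lie on chromosome 9 from 21711955 to 21722565 (Rab3d), chromosome 8 from 73278578 to 73282585 (Rab3a, whose end overlaps Mpv17l2 on the other strand) and chromosome 9 from 72892672 to 72945399 (Rab27a).

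Rab37, a granule Rab first described in mast cells, was close to Rab27a, at 21.0, 18.0, 13.2 and 15.2 RPKM (mean 16.9 ± 3.41 RPKM, SD, n = 4). Rab27b, the second Rab27 isoform and known from platelets and exocrine glands, was lower, at 5.30, 9.33, 4.88 and 4.35 RPKM. Both were called above 1 RPKM (adjusted p by limma of 3.82e-06 and 0.000429). Library 2 had the highest Rab27b, and its summed level of 4 platelet markers was also the highest, at 14.0 RPKM against 7.99 to 9.86 RPKM in the others. The markers did not move as 1: Pf4 (2.92, 9.0, 4.61 and 6.29 RPKM) and Gp1ba were highest in library 2, and Itga2b (3.95, 2.13, 2.51 and 2.52 RPKM) was lowest there. Gp9 was at 0.27 RPKM or less in every library, and the part of platelet RNA in Rab27b was not tested.

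The last members of the group, Rab3c and Rab3b, are further Rab3 isoforms, known from neurons and, for Rab3b, from epithelial and pituitary cells. Rab3c was at 0.28 and 0.32 RPKM in libraries 1 and 2 and at 2.57 and 2.35 RPKM in libraries 3 and 4, about 57, 60, 533 and 653 estimated reads. Its mean of 2.46 RPKM in the latter libraries was 8.2 times that in the former. The values of the library pairs did not overlap, and the level over all 4 was not called on either side of 1 RPKM (limma, adjusted p = 0.805). Rab3b was at 1.16, 0.29, 0.77 and 0.89 RPKM and was not called either (limma, adjusted p = 0.198).

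Of 7 islet markers 5 were higher in both of libraries 3 and 4 than in libraries 1 and 2, as Rab3c was. So were 4 of the 5 neuronal markers with a row, and none in either list was lower in both. Over all genes with a mean of at least 1 RPKM the share that was higher was 29.7%. The summed level of 7 islet markers was 4227, 10328, 16140 and 18302 RPKM in libraries 1 to 4, and that of the 5 neuronal markers with a row was 124, 104, 307 and 308 RPKM. Chga and Sst, a granule protein and a hormone, were higher in both of libraries 3 and 4, as were Ins1, Ins2 and Pcsk2. Gcg (95.7, 942, 612 and 818 RPKM) and Iapp overlapped between the library pairs. Of the neuronal markers, Tubb3, a neuronal tubulin, and Syp, a vesicle protein shared by neurons and endocrine cells, made up most of the neuronal sum. The neuronal splicing factor Rbfox3 was at 1.07, 2.26, 2.80 and 2.65 RPKM, also higher in libraries 3 and 4. Elavl4, at 0.21, 0.27, 1.29 and 1.14 RPKM, was higher there as well. The mean of Elavl4 was 0.728 RPKM, so the share of 29.7% does not cover it. Snap25, a fusion protein of synapses and endocrine granules, was at 2.01, 0.45, 1.8 and 1.74 RPKM, highest in library 1. The marker levels were not adjusted for GC content. Chga, Sst, Ins2, Tubb3, Syp and Rbfox3 have GC contents from 56.0% to 60.3%, and Pcsk2, Ins1 and Elavl4 from 38.5% to 48.2%. The part of other cells in the Rab3c values was not tested.

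**Figure D2:**
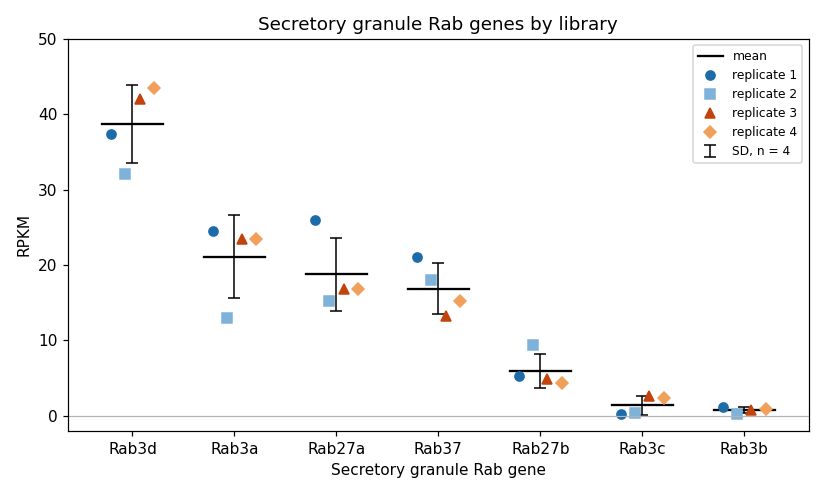
RPKM of the 7 secretory granule Rab genes on a linear axis, with 1 point per library, the mean as a bar and the SD over 4 libraries as whiskers. Rab3d is highest in every library, and Rab3c is above 2 RPKM only in libraries 3 and 4.

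RefSeq promoter sequence, in build GRCm38.p6, was matched for 47 of the 57 members, with 59 start sites. In the 250 bases before the start the median number of CG dinucleotides was 15 for Rab promoters, beside 6 over 32851 RefSeq promoters, and the median GC content was 60.4% beside 52.4%. Of the granule Rabs, Rab3d had 18 CG dinucleotides at its single start, Rab3a 16 and 15 at its 2 starts, Rab3c 7 and Rab3b 6. Rab27a had 14 at its upstream start and 5 at its downstream start, so its place among them depends on the start. Rab27b and Rab37 were not matched. The 150 bases before the start of the 3 highest granule Rabs and of Rab3b are shown beside each other, with the upstream start for Rab3a and Rab27a, 5′ to 3′ on the strand of the gene, with each CG in capitals. They lie at chr9:21918184-21918333 (minus strand, Rab3d), chr8:70754553-70754702 (plus strand, Rab3a), chr9:73044660-73044809 (plus strand, Rab27a) and chr4:108878920-108879069 (plus strand, Rab3b).
Rab3d: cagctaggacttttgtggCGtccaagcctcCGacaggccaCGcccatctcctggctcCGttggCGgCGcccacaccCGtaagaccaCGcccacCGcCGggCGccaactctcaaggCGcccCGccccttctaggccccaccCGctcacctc
Rab3a: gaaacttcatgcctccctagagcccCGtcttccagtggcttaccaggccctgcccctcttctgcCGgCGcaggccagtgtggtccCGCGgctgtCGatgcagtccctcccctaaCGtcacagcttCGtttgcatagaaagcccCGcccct
Rab27a: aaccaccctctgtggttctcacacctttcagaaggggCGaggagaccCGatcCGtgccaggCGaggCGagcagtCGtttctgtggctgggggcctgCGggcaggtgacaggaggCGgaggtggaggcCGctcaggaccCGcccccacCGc
Rab3b: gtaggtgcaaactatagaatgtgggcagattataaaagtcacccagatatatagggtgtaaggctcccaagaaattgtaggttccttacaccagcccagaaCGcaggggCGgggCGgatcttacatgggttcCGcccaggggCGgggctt

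Capitals number 14 dinucleotides in the Rab3d stretch, 9 in Rab3a, 11 in Rab27a and 5 in Rab3b. The 250-base windows were also searched on both strands for core letters associated with the delivered factors. CAGATG, an E-box form bound by neurogenins, was in 6 of 59 Rab promoters (10.2%, beside 14.4% of all promoters), TAATTA, a homeodomain core, in 1 (1.69%, beside 4.84%), and TGCTGA, the core of the Maf response element, in 8 (13.6%, beside 16.1%). None of these was in the windows of Rab3a, Rab3b, Rab3c, Rab3d or Rab27a, which says only that these letters are not there. TATAAA, the letters of the TATA box, was in 3 of 59 (5.08%, beside 12.4%) and was found in the window of Rab3b. It was counted at any place in the window, so a hit does not show a working TATA box. No motif is the same as another on either strand, although neighbouring hits can share end letters.

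Within subfamilies the isoforms stood at different levels, in the same order in every library for most pairs. Rab27a exceeded Rab27b in 4 of 4 libraries, by 1.52 ± 0.61 in log2(RPKM + 1) (SD, n = 4), and the ratio of RPKM was 4.90, 1.64, 3.45 and 3.88 in libraries 1 to 4. Rab3a was below Rab3d in 4 of 4 libraries (mean difference -0.88 ± 0.27) and above Rab3b in 4 of 4, by 3.62 ± 0.15. Rab3d was above Rab27a in 4 of 4, by 1.03 ± 0.37. Rab3a and Rab27a did not keep an order: their difference was -0.08, -0.22, 0.45 and 0.46 in libraries 1 to 4, with a mean of 0.15 ± 0.35. Rab37 and Rab27a also differed by less than the spread, with a mean difference of -0.13 ± 0.25. Of 8 pairs tested, those with 1 order in all libraries reached the smallest p that an exact two-sided sign-flip permutation of 4 libraries allows, 0.2 after Benjamini-Hochberg adjustment, so no pair could pass 0.05. The exact permutation p was 0.5 for Rab3a against Rab27a and 0.375 for Rab37 against Rab27a.

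The granule Rabs were lower than the endocytic Rabs in every library and did not differ from the Golgi Rabs beyond their spread. The median granule Rab was at 21.0, 13.0, 13.2 and 15.2 RPKM in libraries 1 to 4, the median of 23 endocytic Rabs (early, recycling, late) at 35.65, 34.2, 36.6 and 35.8 RPKM, and the median of 14 ER and Golgi Rabs at 17.5, 23.7, 15.6 and 15.3 RPKM. The difference of medians from the endocytic Rabs was -0.73, -1.33, -1.41 and -1.18 in log2(RPKM + 1), with a mean of -1.16 ± 0.30 (SD, n = 4), or 2.24-fold. That from the Golgi Rabs was 0.26, -0.82, -0.23 and 0.00, with a mean of -0.20 ± 0.46. It turned to 0.01 without library 2, and to -1.05 ± 0.22 with the mean of the members in place of their median. Adding Rab26, a Rab of exocrine granules, gave -1.80 ± 0.25 against the endocytic and -0.84 ± 0.16 against the Golgi Rabs.

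As shares of the summed Rab RPKM, which depend on the number of genes in a class, the 7 granule Rabs took 4.65% ± 0.565 (SD, n = 4) of the total, the 14 ER and Golgi Rabs 30.7% ± 2.34 and the 23 endocytic Rabs 48.04% ± 4.89. The granule share was lowest in library 2, at 3.87%, and 4.76% to 5.23% in the others. The endocytic share was 42.8% and 45.0% in libraries 1 and 2 and 51.7% and 52.7% in libraries 3 and 4, and the ER and Golgi share 32.6%, 32.8%, 29.1% and 28.3%. Neither set of values overlapped between the library pairs. The shares were not adjusted for GC content, which the difference between the library pairs followed. With the median of genes of like GC content taken off in each library, Rab1, Rab2a, Rab6 and Rab18 were above in libraries 3 and 4. Of the ER and Golgi Rabs with a mean of at least 1 RPKM only Rab34 was then below.

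**Figure D3:**
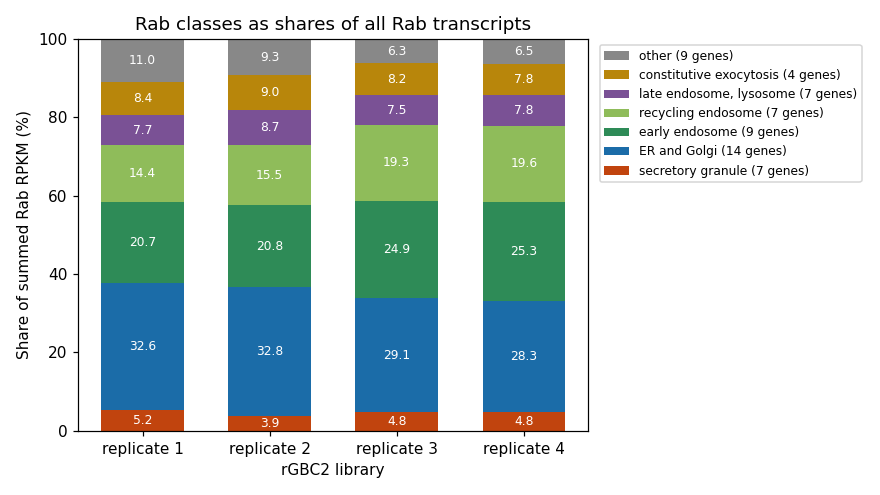
Share of the summed Rab RPKM taken by each class in each library, as stacked bars in percent that start at 0. Early and recycling endosome Rabs take larger shares in libraries 3 and 4 than in libraries 1 and 2, and the granule Rabs 3.87% to 5.23%. The shares are not adjusted for GC content.

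The ER and Golgi Rabs held the most abundant member. Of 14, 13 lay above 1 RPKM and 1 below it. Rab1, which with Rab1b serves transport from the ER to the Golgi, was at 201, 268, 178 and 173 RPKM and was the highest Rab by mean, 205 ± 43.8 RPKM (SD, n = 4). Rab1b was at 186, 101.1, 178 and 180 RPKM, and library 2 thus had the highest Rab1 and the lowest Rab1b. Rab2a, also of the ER to Golgi step, was at 95.5 ± 11.8 RPKM and varied less. Rab33a, a Golgi Rab of brain and immune cells, was at 0.31, 0.14, 0.04 and 0.10 RPKM, which is 1 to 9 estimated reads per library, and lay below 1 RPKM (limma, adjusted p = 3.24e-05). Its paralogue Rab33b, which acts at the Golgi and in autophagosome formation, was at 18.3 ± 3.95 RPKM. The remaining members had means between 1.63 RPKM (Rab2b) and 72.1 RPKM (Rab18). Rab2b (limma, adjusted p = 0.0403) lost its call without any 1 library (0.0706 to 0.0926). Its level is uncertain, since 74.2% of its 50-base windows are shared with transcripts on the other strand, including Tox4, and that of Rab43 because 96.6% are shared with the annotated gene Gm45140.

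All 9 early endosome Rabs lay above 1 RPKM, with means between 21.1 and 152 RPKM. Rab5c, an isoform of the regulator of early endosome fusion, led the class at 118, 139, 170 and 182 RPKM. Rab5a, its paralogue, was at 35.65, 47.2, 25.8 and 22.9 RPKM, so the ratio of Rab5c to Rab5a was 3.30 and 2.95 in libraries 1 and 2 and 6.59 and 7.96 in libraries 3 and 4. The mean difference was 2.21 ± 0.70 in log2(RPKM + 1), with Rab5c higher in 4 of 4 libraries (adjusted exact permutation p = 0.2, n = 4). The transcripts of Rab5c and Rab5a have GC contents of 54.5% and 42.3%. With the median of genes of like GC content taken off, Rab5c was still above in libraries 3 and 4, and Rab5a was no longer below. Rab20, an endosomal Rab of epithelia and macrophages, followed at 76.9 ± 10.9 RPKM (SD, n = 4) and Rab22a, of early and recycling endosomes, at 60.1 ± 10.8 RPKM. The lowest was Rab5b, at 21.1 ± 3.05 RPKM. Rab4b, at 45.1 ± 9.64 RPKM, is uncertain, since 80.3% of its windows are shared with the annotated gene Gm21983.

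The recycling Rabs were led by an epithelial member. Rab25, an epithelial relative of Rab11 that acts in apical recycling, was at 94.8, 114, 208 and 212 RPKM. Its mean in libraries 3 and 4 was 2.01 times that in libraries 1 and 2, with no overlap. Rab11a, the widely expressed form, was at 90.4, 133, 105 and 119 RPKM, where the library pairs overlapped. Rab11a lay above Rab25 in 1 of 4 libraries, and the mean difference was -0.42 ± 0.58 in log2(RPKM + 1) (n = 4, p = 0.375 by the exact permutation test). Of 6 biliary markers 1 was higher in both of libraries 3 and 4 and 3 were lower. Krt7 was higher, at 466 and 482 RPKM in libraries 1 and 2 and at 802 and 789 RPKM in libraries 3 and 4. Krt19 (91.0, 103, 72.0 and 77.8 RPKM), Sox9 (1.2, 0.92, 0.64 and 0.61 RPKM) and Cftr (0.18, 1.5, 0.01 and 0.02 RPKM) were lower. Epcam (161, 239, 191 and 215 RPKM) and Spp1 overlapped. The part of epithelial cells in the Rab25 values was not tested. Rab14, of the Golgi and endosomes, was at 82.2, 52.75, 45.2 and 44.6 RPKM. The lowest member was Rab15, at 2.42, 1.14, 2.45 and 2.43 RPKM. It lay above 1 RPKM (limma, adjusted p = 0.0172), as did all 7 of the class, and the adjusted p was 0.0672 with libraries 3 and 4 averaged and 0.0521 to 0.0692 without library 1, 3 or 4.

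Among the late endosome and lysosome Rabs 6 of 7 lay above 1 RPKM. Rab7, which directs late endosomes to fuse with lysosomes, was at 95.8, 85.9, 76.6 and 82.1 RPKM. Rab24, linked to autophagy, was the steadiest member of the family at 43.1, 39.6, 42.4 and 44.1 RPKM, although 43.5% of its windows are shared with Prelid1 on the other strand. Rab9, of the route from late endosomes to the Golgi, was at 19.8 ± 4.14 RPKM (SD, n = 4). Rab9b, its paralogue, was the lowest at 1.62 ± 0.371 RPKM (limma, adjusted p = 0.0327 for a level above 1 RPKM, 0.118 with libraries 3 and 4 averaged, and 0.0835 to 0.135 without library 2, 3 or 4).

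Rab38 and Rab32, which build melanosomes and other lysosome-related organelles, varied most in this class. Rab38 was at 2.18, 29.4, 13.4 and 15.0 RPKM, so that library 1 was far below the others and library 2 highest. Rab32 was at 2.03, 4.75, 1.5 and 1.15 RPKM, also highest in library 2. The summed level of 6 biliary markers was 1055, 2159, 1483 and 1554 RPKM in libraries 1 to 4, lowest and highest in the same libraries as Rab38. The library 2 peak of that sum came from Spp1 (336, 1332, 418 and 471 RPKM), while Krt7 was highest in libraries 3 and 4, and the part of biliary cells in these values was not tested. With Rab3c they were the only 3 of 52 members with a mean of at least 1 RPKM whose highest library exceeded the lowest more than 3 times (5.77%, against 15.4% of all genes at that level). The median coefficient of variation of those 52 members was 20.8%, beside 24.2% over all genes with such a mean.

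The constitutive export Rabs were all 4 above 1 RPKM. Rab10, of transport to the basolateral and plasma membrane, stood at 75.4 ± 8.92 RPKM (SD, n = 4) and Rab8a, of export from the Golgi and of cilia, at 64.9 ± 8.77 RPKM. Rab8b was at 45.7, 33.5, 25.15 and 19.98 RPKM, and Rab13, of tight junction traffic, at 14.5 ± 1.07 RPKM. Of the 9 remaining members 6 lay above 1 RPKM, near the 65.0% of all genes tested. Rab12, which acts in lysosomal and autophagic transport, led them at 174, 146, 72.6 and 78.7 RPKM. Its values in libraries 3 and 4 were all below those in libraries 1 and 2, with a ratio of means of 0.473. Rab28, linked to cilia and photoreceptors, was at 29.2 ± 3.19 RPKM and Rab40c, an adaptor of a ubiquitin ligase, at 18.4 ± 3.65 RPKM. Rab26 was at 0.50, 0.04, 0.63 and 0.58 RPKM, with 1 estimated read in library 2, and Rab44, an atypical large Rab of blood cells, at 0.09, 0.01, 0.17 and 0.12 RPKM. Both lay below 1 RPKM (limma, adjusted p = 0.00812 and 3.85e-06).

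Libraries 3 and 4 differed from libraries 1 and 2 for many members, at about the rate of other genes. Of 52 members with a mean of at least 1 RPKM, 13 (25.0%) had both values of libraries 3 and 4 above both of libraries 1 and 2, against 29.7% of all such genes, and 20 (38.5%) had both below, against 41.2%. The 5 members under that mean, Rab3b, Rab33a, Rab39, Rab26 and Rab44, were left out. Rab3c, Rab25, Rab3d, Rab4a, Rab4b, Rab5b, Rab5c, Rab20 and Rab35 were among the first set and Rab12, Rab18, Rab5a, Rab8b, Rab27b and Rab37 among the second. The median GC content of the transcripts was 54.2% in the first and 44.6% in the second, and over the 52 members the difference correlated with GC content much as it did over all genes (Spearman 0.57, transcripts of the same 4 libraries).

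With the median of genes of like GC content taken off in each library, 27 members lay above (51.9%, beside 36.7% of all genes) and 5 below (9.62%, beside 30.1%). Of the 13 above as deposited, 11 were still above, including Rab3c, Rab3d, Rab25, Rab4a, Rab4b, Rab5b and Rab5c. Of the 20 below, only Rab12, Rab34 and Rab37 were still below, and 8 moved to the other side (Rab1, Rab2a, Rab6, Rab10, Rab18, Rab21, Rab23 and Rab27b). Rab3c has a GC content of 41.9%, where the median of all genes differed between libraries 3 and 4 and libraries 1 and 2 by -0.86 in log2(RPKM + 1), while Rab3c itself differed by 1.41.

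**Figure D4:**
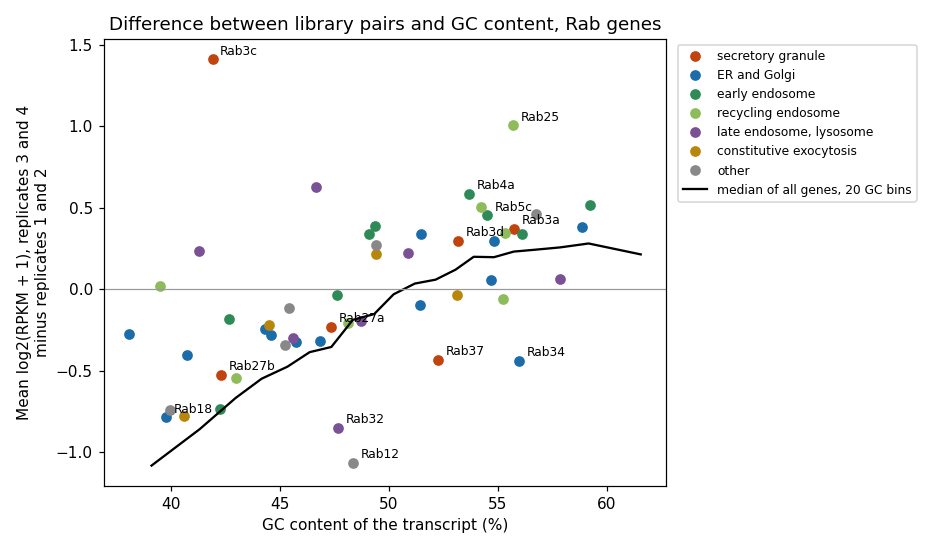
Difference in mean log2(RPKM + 1) between libraries 3 and 4 and libraries 1 and 2 for the 52 Rab genes with a mean of at least 1 RPKM, against the GC content of the transcript in percent, with the median of all genes in 20 GC bins as a line. Rab3c (1.41), Rab11a (0.021 at 39.5% GC) and Rab9b (0.24 at 41.3% GC) lie far above the line. Rab25 (1.006) lies above it by less, and Rab12 (-1.06) far below it.

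The partners of the Rabs were measured from lists of effectors and regulators. Of 80 with a row, 71 lay above 1 RPKM and 6 below. The median of their means was 20.1 RPKM beside 7.38 RPKM over all genes tested. Granule effectors had a median of 5.73 RPKM, below that of all genes. The other lists had 51.9 (prenylation and recycling), 49.6 (Golgi), 20.6 (GEFs and GAPs) and 19.1 RPKM (endocytic). Of 18 effectors of granule Rabs and proteins of the release site, 12 lay above and 4 below. That is near the shares of all genes tested, 65.0% above and 26.1% below. Sytl4 (granuphilin), which binds Rab27a and docks insulin granules, was at 97.3, 115, 148 and 152 RPKM, above every granule Rab in each library. Mlph, the melanophilin that links Rab27a to a myosin, followed at 113, 69.0, 139 and 130 RPKM. Rims1, a Rab3-binding scaffold of synaptic release sites, was listed at 0 in libraries 1 and 4 and at 0.03 RPKM in the others. Rph3a, rabphilin, had values of 0, 0, 0.16 and 0.16 RPKM. Their relatives Rims2, which acts in beta-cell exocytosis, and Rph3al (Noc2), a Rab3 and Rab27 effector of endocrine cells, were at 6.9975 ± 1.81 and 19.3 ± 1.76 RPKM (SD, n = 4). These 4 were named after their values were seen.

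Some Rab27 effectors differed strongly between libraries. Sytl5 was at 24.3, 16.9, 4.44 and 3.25 RPKM, so libraries 3 and 4 lay below the others. The GC content of the Sytl5 transcript is 46.0%, and the levels of partners were not adjusted for GC content. Myrip, which ties Rab27a on granules to a myosin and actin, was at 12.7 RPKM in library 1 and at 1.20 to 1.79 RPKM in the others, and its level had no call (limma, adjusted p = 0.136).

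Of 11 listed GEFs and GAPs, not all of which act on granule Rabs, 10 lay above 1 RPKM. The highest were Tbc1d1, a GAP of glucose transporter vesicles, at 42.1 ± 6.03 RPKM and Rab3gap1, the catalytic subunit of the Rab3 GAP, at 32.1 ± 3.74 RPKM (SD, n = 4). All 8 genes of lipid modification and membrane recycling lay above 1 RPKM. They were led by Rabac1, a receptor that aids membrane insertion, at 305, 485, 323 and 333 RPKM, and Gdi2, a GDI, at 219 ± 30.2 RPKM. Chm, the escort protein that presents Rabs for prenylation, was at 12.6, 15.6, 4.70 and 3.11 RPKM, lower in libraries 3 and 4. The GC content of the Chm transcript is 37.0%, and its part in these values was not tested.

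In the endocytic effector list 24 of 26 lay above 1 RPKM and 1 below, led by Vps39, a subunit of the tether that Rab7 engages, at 59.0 ± 13.6 RPKM and Ehd1, of recycling endosomes, at 44.1 ± 10.7 RPKM (SD, n = 4). Eea1, the Rab5 effector that tethers early endosomes, was at 12.5, 13.2, 2.82 and 2.23 RPKM, while Rab5c was higher in libraries 3 and 4. The transcripts of Eea1 and Rab5c have GC contents of 41.8% and 54.5%, and the part of GC content in the Eea1 values was not tested. All 17 Golgi partners with a row lay above 1 RPKM, led by Golga5, a golgin, at 205 ± 57.8 RPKM and Trappc1, a subunit of a Rab1 GEF complex, at 80.7 ± 13.6 RPKM.

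**Figure D5:**
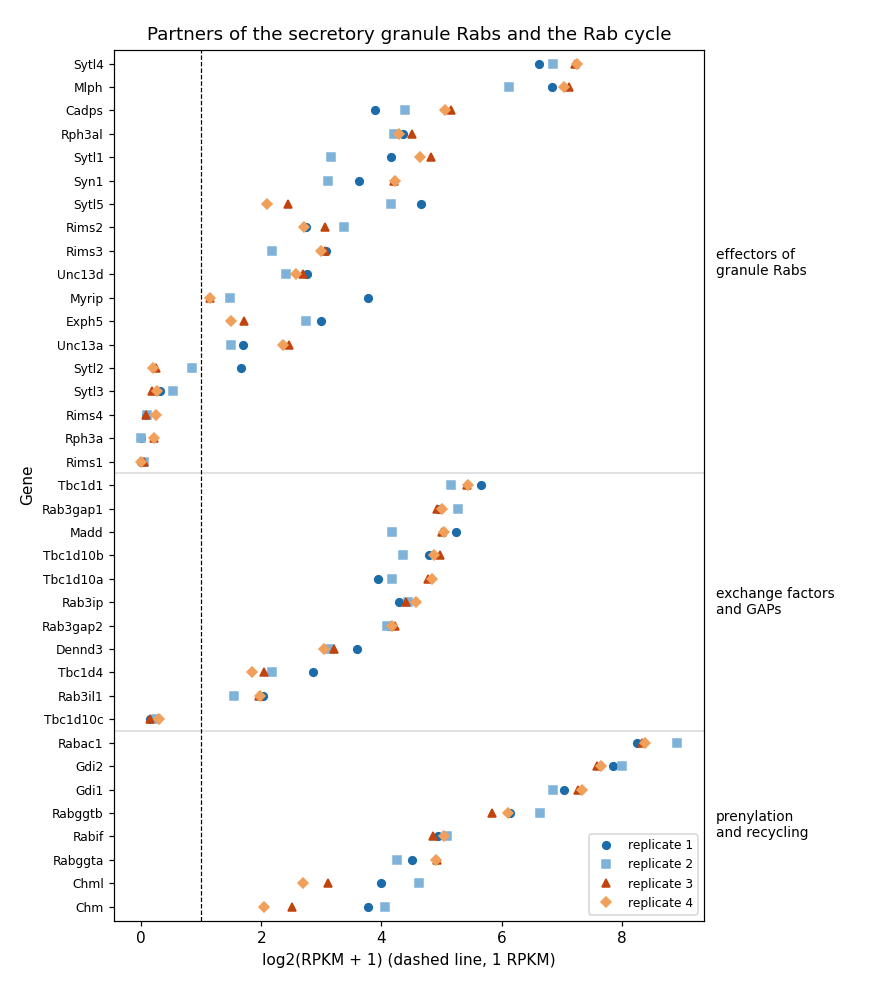
Levels as log2(RPKM + 1) of effectors of the granule Rabs, listed exchange factors and GAPs, and genes of Rab prenylation and recycling. There is 1 point per library and a dashed line at 1 RPKM. Sytl4 and Mlph are the highest effectors, Rims1 and Rph3a lie near 0, and Sytl5 and Chm are lower in libraries 3 and 4. The levels are not adjusted for GC content.

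Markers of the labelled cells were present, with 7 of 7 islet and 4 of 6 biliary markers above 1 RPKM. Markers of other cells in the gallbladder or pancreas were low or mixed. The summed level of 5 endothelial markers was 0.98 to 1.31 RPKM per library and that of 6 mesenchymal markers 1.61 to 5.70 RPKM. Of 6 immune markers 3 lay above 1 RPKM, with a sum of 152 to 190 RPKM that was mostly Cd68, while Ptprc was at 0.01 RPKM or less and Cd3e was listed at 0 in every library. Of 5 acinar and 4 hepatocyte markers 1 and 2 lay above 1 RPKM, with sums of 8.46 to 18.1 and 20.6 to 55.6 RPKM. The reporter sort makes islet markers a selected property of these cells.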

How the data were processed

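The authors deposited 1 table of RPKM values, rounded to 2 decimals, with 1 RefSeq transcript per gene symbol. The submitters' processing notes name CASAVA 1.8.2, Bowtie and the genome build mm9. The counting program is not given in the sources used here. Another 6 per-sample columns match no sample of this series and were not used. Start coordinates were raised by 1, since the spans of 896 of 993 short olfactory receptor genes are multiples of 3 only when counted from 0.

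Depth was estimated by fitting, per library, the RPKM of 1 read to the low values of those genes. It is an estimate, since whole multiples of a depth can match as well. Estimated reads use transcript lengths from GENCODE M21, matched by RefSeq identifier for 98.1% of genes, and cover counting error only.

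Levels were tested against 1 RPKM on log2(RPKM + 1) with limma 3.58.1 in R 4.3.3, two-sided, moderated with a trend, with Benjamini-Hochberg adjustment over the 16919 genes with a value above 0 in some library. The threshold was 0.05. The test was checked on simulated data. A fold on this scale understates the change of low genes. Pairs of genes were compared with exact sign-flip permutation tests, and class medians carry no test. The members, lists and pairs were chosen with earlier results of these data known. Named are all granule Rabs, the 3 highest and the lowest of each other class, members at a mean of at least 1 RPKM that vary over 3-fold, and of each regulator list the 2 highest and, at a mean of at least 1 RPKM, those varying over 5-fold; any other named gene was chosen after its values were seen. Alternatives covered the pseudocount, filter, trend, scaling, class summary and each left-out library. Shared sequence is the percentage of 50-base windows of a transcript found in transcripts of other genes, on either strand. The kit named in the labels, TruSeq RNA v2, does not mark strand, so reads of overlapping genes on opposite strands cannot be told apart. Libraries 1 to 4 are the labels' replicates 1 to 4. Figures were drawn with matplotlib 3.10.9.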

Additional observations from a re-analysis of the deposited data

Results flagged for a closer look

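Among 75 sets of 4 library values examined, 6 had 1 library far from the other 3, measured as the gap to the nearest value divided by the whole range, above Dixon's critical value. Chance flags about 1 in 20 such sets if the 4 values are independent, whereas libraries 3 and 4 stood close together. Library 2 was the low library for Rab3a (0.903), Rab1b (0.902), Rab36 (0.888) and Rab15 (0.977), and the high library for Rab33b (0.851). The GC contents of these transcripts were 55.8%, 58.9%, 54.8% and 55.3% for the low genes and 45.7% for Rab33b. The part of GC content in the library 2 values was not tested. Library 1 was the high library for Rab27a (0.852). Rab36, a Golgi Rab, had values of 3.36, 1.75, 3.32 and 3.18 RPKM, in the order of libraries 1 to 4, and Rab33b 17.0, 24.15, 15.7 and 16.25 RPKM.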

How the results depend on the processing

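The count of Rab genes above 1 RPKM stayed between 47 and 51 over all alternatives and that below between 2 and 4; leaving out each replicate in turn gave 47 to 48 above and 3 to 4 below. The difference of granule from endocytic medians kept its direction in every alternative. It was -1.52 with the mean of members, -3.36 with summed RPKM and -1.80 with Rab26 added, and -1.31 to -1.08 leaving out each replicate. The difference from the Golgi Rabs was -1.05, -2.72 and -0.84 under the same settings, and -0.35 to 0.010 leaving out each replicate, with the change of sign (0.0103) without replicate 2. Summed RPKM compares lists of unequal length, which by itself lowers the granule value. With GC-bin medians taken off, 27 Rab genes lay above and 5 below in replicates 3 and 4, against 13 and 20 as deposited, and 14 and 18 with upper-quartile scaling; these 2 settings for this split, and the averaging of replicates 3 and 4 for all results, were chosen after seeing the data. All 8 pairs of genes kept the sign of their mean difference. Leaving out a replicate leaves a smallest permutation p of 0.25. Among single Rab genes, calls were lost under some alternatives for Rab2b, Rab15 and Rab9b (limma, adjusted p up to 0.0926, 0.0692 and 0.135) and gained for Rab32 (down to 0.0447; 0.0468 without replicate 4) and Rab39 (0.0480 without replicate 3). The level of Rab3c against 1 RPKM moved from 0.08 to between -0.17 and -0.12 in 4 settings and never had a call. No paired analysis was possible because there is 1 group. Values of Rab26, Rab33a and Rab44 rest on 1 to 30 estimated reads per library.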
